A study of Mus musculus with 25 samples.

Results

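The genes described here load peptides onto MHC class I molecules, the surface proteins that show fragments of a cell's own proteins to CD8+ T cells. The set holds 9 genes, chosen by name and with earlier results of these data known. They are the classical heavy chains H2-K1 and H2-D1, their light chain B2m, the transactivator Nlrc5, the peptide transporter subunits Tap1 and Tap2, the loading chaperone Tapbp (tapasin), and the immunoproteasome subunits Psmb8 and Psmb9. All 9 were found among the 47729 genes of the bulk count table and among the 31053 features of the single-cell matrices, and all 9 passed the filter on low counts that left 15773 bulk genes for testing.

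In this pathway the proteasome cuts cytosolic proteins into peptides, and the immunoproteasome subunits replace constitutive ones when interferon acts on a cell. TAP carries the peptides into the endoplasmic reticulum, tapasin holds the empty heavy chain beside the transporter, and a heavy chain leaves for the cell surface once it has bound B2m and a peptide. NLRC5 has no DNA-binding domain of its own and acts at class I promoters through factors bound to the so-called W/S, X1, X2 and Y boxes. In lung, endothelial and immune cells are known for high class I levels, and interferon raises the pathway in most cell types, fibroblasts included.

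The cells were lineage-negative (Lin-) lung cells, sorted by flow cytometry as live and negative for CD45, CD31 and CD326, which removes most leukocytes, endothelial and epithelial cells. All mice carried Col1a1-CreERT2, a tamoxifen-inducible Cre driven by the Col1a1 promoter, together with Fas fl/fl, in which exon 9 of the death receptor gene Fas is floxed. Naive mice (labelled Control) received no bleomycin, and whether they had any instillation or injection was not stated. In comparisons with naive, bleomycin therefore cannot be told apart from these procedures. The other groups received intratracheal bleomycin, which scars the lung, and were harvested at 3 or 6 weeks. Mice given corn oil are called Fas+/+ (Week3 WT, Week6 WT) and mice given tamoxifen are called Fas-/- (Week3 FasDel, Week6 FasDel), so the deletion and tamoxifen cannot be told apart. The Cre was meant to act in cells with Col1a1 promoter activity. The paper nonetheless reports a similar loss of exon 9 across its single-cell clusters, without showing those data. It also reports fewer cells with exon 9 transcripts in Fas-/- than in Fas+/+ mice, though some Fas-/- cells still had them. The ages of the mice were not given in the sources used here. Bulk RNA-seq held 5 groups of 4 libraries, and single-cell RNA-seq held 5 libraries, 1 per condition, each from 4 pooled mice. The study's methods count individual mice as replicates, with 4 per bulk group, while the labels number the libraries only.

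Bulk libraries held 11819700 to 25189096 counts in genes (median 20122870). Fibroblast transcripts were abundant. Mean Col1a2 ran from 4646 to 9252 CPM (counts scaled to a common library size) over the 5 groups. Mean Pdgfra ran from 1024 to 2036 CPM. The endothelial gene Pecam1 was nonetheless present, at group means of 30.7 CPM in naive, 765 and 470 CPM in 3-week Fas+/+ and Fas-/-, and 167 and 145 CPM in 6-week Fas+/+ and Fas-/- libraries. Cdh5, another endothelial gene, had means of 49.96 CPM in naive and 1211 CPM in 3-week Fas+/+ libraries, where mean Pdgfra was 1024 CPM. The CD31-negative part of the sort was therefore not borne out in full. Ptprc, which encodes CD45, had group means of 0.133 to 1.86 CPM, and Epcam, which encodes CD326, of 0.311 to 2.97 CPM. Whole-gene Fas counts, which do not separate exon 9, ran from 21.1 to 23.9 CPM in naive, 33.97 to 57.7 and 34.4 to 64.9 CPM in 3-week Fas+/+ and Fas-/-, and 26.1 to 39.7 and 35.6 to 46.6 CPM in 6-week Fas+/+ and Fas-/- libraries. They therefore do not check the deletion.

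Most of the 9 genes lie in the MHC region of mouse chromosome 17 (GRCm38 coordinates, GENCODE annotation): Tapbp at chr17:33915899-33929292, H2-K1 at chr17:33996017-34000347, Psmb9 at chr17:34181987-34187764, Tap1 at chr17:34187553-34197225, Psmb8 at chr17:34197721-34201454, Tap2 at chr17:34203527-34216321 and H2-D1 at chr17:35262730-35267499. B2m is at chr2:122147686-122153083 and Nlrc5 at chr8:94434356-94527272. Psmb9, Tap1, Psmb8 and Tap2 are direct neighbours, and the divergent Psmb9 and Tap1 overlap over 212 bases. B2m overlaps Patl2 on the opposite strand, Tapbp overlaps Zbtb22 on the same strand over 3422 bases, and Psmb8 and Tap2 each overlap an antisense transcript. The setting of strand in the authors' counting was not stated, so these overlaps could divide or mix reads. H2-K1 and H2-D1 also share near-identical stretches with the H2-Q genes, and their counts are uncertain to that degree.

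RefSeq promoters (GRCm38.p6) were matched for 7 of the 9 genes, all but Nlrc5 and Tap2. They are shown for 5 genes because NLRC5, the gene with the largest change below, acts through promoter boxes. Each sequence is the 150 bases up to the base before the annotated start, read 5′ to 3′ on the strand of the gene, and the capitals mark 4 motifs: TGACG (the core of the X2 box), CCAAT or its reverse complement ATTGG (the core of the Y box), GAAA followed after any 2 bases by GAAA (the interferon-stimulated response element core) and TTCNNNGAA (the gamma-activated site core).
H2-K1 (chr17:34000348-34000497, minus strand): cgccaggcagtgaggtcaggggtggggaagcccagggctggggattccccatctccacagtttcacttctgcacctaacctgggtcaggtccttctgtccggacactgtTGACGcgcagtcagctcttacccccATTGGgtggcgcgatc
H2-D1 (chr17:35262944-35263093, plus strand): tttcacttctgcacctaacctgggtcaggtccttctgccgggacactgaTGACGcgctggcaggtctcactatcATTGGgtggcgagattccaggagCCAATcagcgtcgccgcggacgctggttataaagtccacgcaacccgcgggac
B2m (chr2:122147537-122147686, plus strand): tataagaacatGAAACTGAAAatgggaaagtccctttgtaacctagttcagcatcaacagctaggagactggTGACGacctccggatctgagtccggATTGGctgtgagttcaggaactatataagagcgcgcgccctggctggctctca
Tap1 (chr17:34187406-34187555, plus strand): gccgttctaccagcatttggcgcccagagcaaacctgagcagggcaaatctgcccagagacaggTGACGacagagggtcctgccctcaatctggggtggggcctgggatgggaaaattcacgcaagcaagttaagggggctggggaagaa
Psmb8 (chr17:34198045-34198194, plus strand): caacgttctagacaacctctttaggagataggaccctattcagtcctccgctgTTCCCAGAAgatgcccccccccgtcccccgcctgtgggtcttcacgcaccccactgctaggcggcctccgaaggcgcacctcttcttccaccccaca

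Both strands of 32851 RefSeq promoters of 27025 genes, from 250 bases before to 50 bases after the start, were searched for the same letters. TGACG was present in 5 of the 7 matched promoters (H2-K1, H2-D1, B2m, Tap1 and Psmb9) and in 20.8% of all promoters, and CCAAT in 6 of the 7 (all but Psmb8) and in 37.4% of all. An exact match to the interferon-stimulated response element core was found only in B2m among the 7, against 3.44% of all promoters. TTCNNNGAA was found only in Psmb8, against 8.30% of all. In H2-K1, H2-D1 and B2m the TGACG was followed by an ATTGG that began 25 bases downstream. That arrangement, looked for after the sequences were seen, occurred in 31 of the 32851 promoters (0.0944%), from 27 genes. A match of letters is a description of the sequence and not evidence of binding. The search took exact letters and would miss variants of these elements. The lack of a match in H2-K1, H2-D1 or another promoter therefore does not show that the element is absent.

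In naive lungs the light chain stood highest per length of annotated exon and the transactivator lowest. The length was that of all annotated exons of a gene merged, which can exceed the length of the transcripts present. The order therefore depends in part on the annotation. Mean CPM per kilobase was 556 ± 56.8 (SD, n = 4) for B2m, 159 ± 13.6 for H2-D1, 99.3 ± 14.99 for H2-K1, 83.7 ± 8.82 for Tapbp, 22.8 ± 0.393 for Tap2, 5.63 ± 0.532 for Tap1, 4.69 ± 0.576 for Psmb8, 2.07 ± 0.492 for Psmb9 and 0.333 ± 0.133 for Nlrc5. In that order the ranges of mean ± SD overlapped between H2-K1 and Tapbp and between Tap1 and Psmb8, and between no other neighbours. At 3 weeks in Fas+/+ libraries the order of the 9 means was unchanged, from 1049 CPM per kilobase for B2m to 3.20 for Nlrc5.

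To ask how the pathway stood in Lin- cells during fibrosis, each bleomycin group was compared with naive mice, and these 4 comparisons share the same naive libraries. At 3 weeks, 7 of the 9 genes were higher than naive in both Fas+/+ and Fas-/- libraries by edgeR's quasi-likelihood test at an adjusted p of 0.05, and Tap2 and Tapbp were not called. Over all 15773 genes 22.1% were called higher in Fas+/+ and 17.2% in Fas-/- libraries, so higher calls were common at this time. The median log2 fold change of the 9 genes was 1.21 in Fas+/+ and 1.22 in Fas-/- libraries, beside medians over all genes of 0.011 and 0.020. At 6 weeks, 6 genes were called higher in Fas+/+ (H2-K1, H2-D1, B2m, Nlrc5, Tap1 and Psmb8) and 3 in Fas-/- libraries (H2-D1, B2m and Nlrc5), against 3.57% and 3.66% of all genes, with medians over the 9 genes of 0.83 and 0.58. None of the 9 was called lower in any of the 4 comparisons, against 19.2%, 14.8%, 1.74% and 2.81% of all genes. In Lin- bulk RNA fewer cells of a type and less RNA per cell cannot be told apart, and this holds for each bulk value below.

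For 8 of the 9 genes, all but Tapbp, every bleomycin library lay above every naive library in each of the 4 comparisons. The shares of all genes with such a gap in that direction were 16.7% and 16.2% at 3 weeks in Fas+/+ and Fas-/-, and 9.27% and 8.31% at 6 weeks. The plot of CPM by library shows these levels for all 9 genes.

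**Figure D1:**
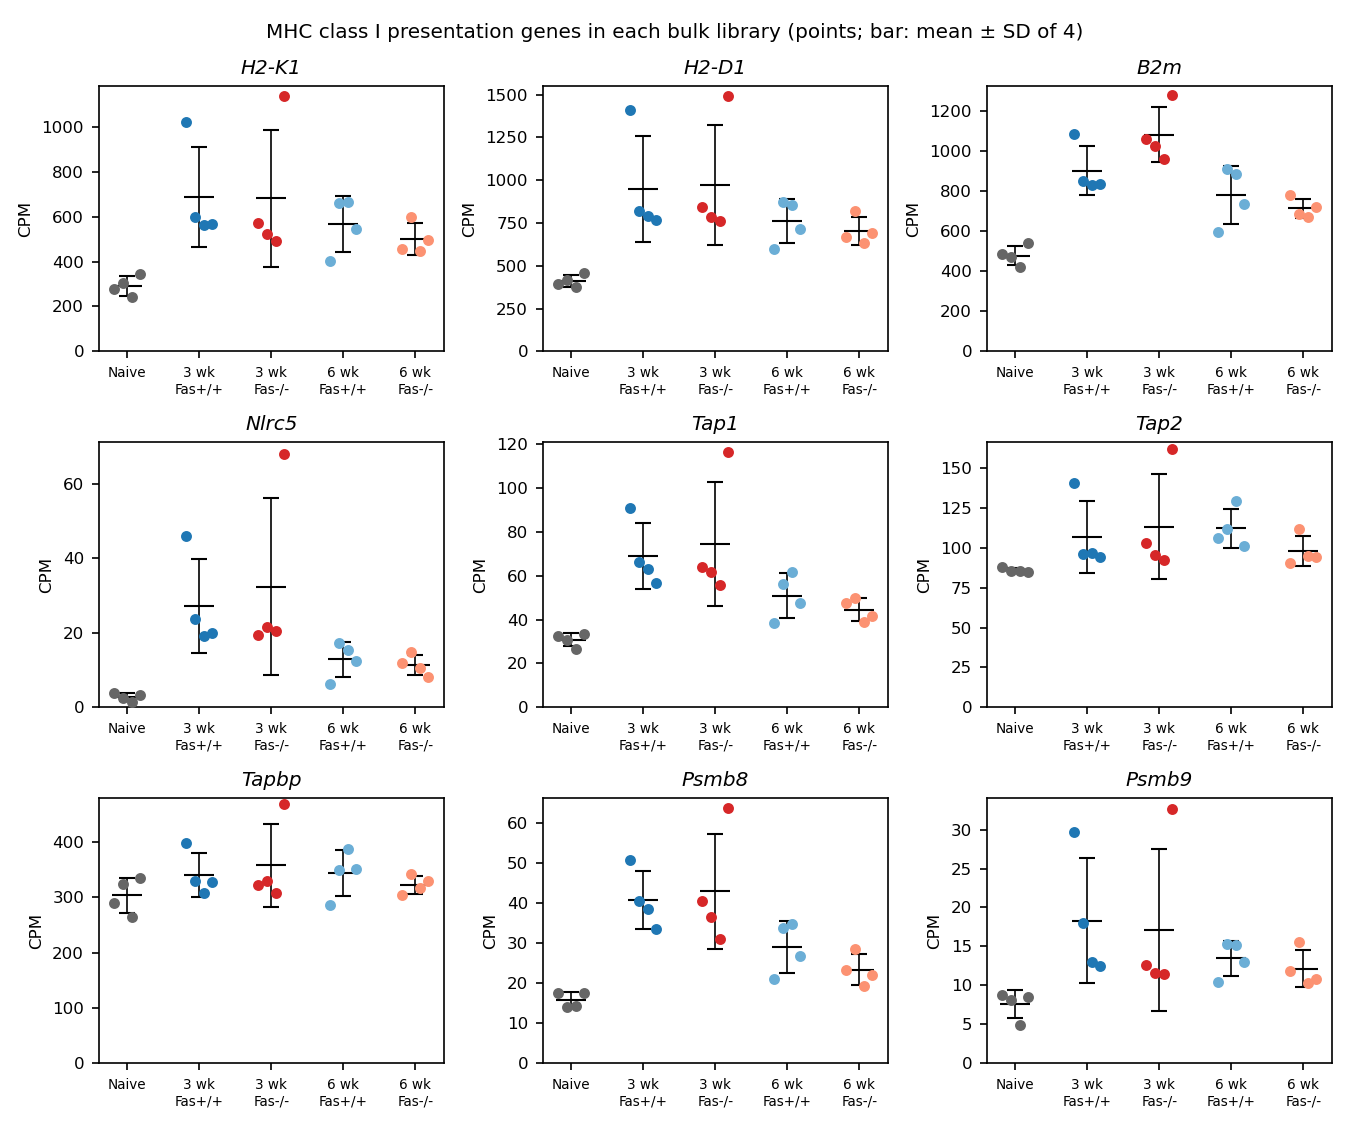
CPM of the 9 class I presentation genes (linear vertical axes from 0, 1 panel per gene) in each of the 20 bulk libraries, by group, with the libraries as points and the mean ± SD of 4 as bars. The naive libraries sit lowest for 8 of the 9 genes, and for all 9 the highest 3-week points are the same pair of libraries, Week3 WT replicate 1 and Week3 FasDel replicate 4.

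Nlrc5, the class I transactivator, showed the largest log2 fold change of the set in all 4 comparisons. It was read at only 91, 66, 28 and 79 counts in the 4 naive libraries, or 3.92, 2.64, 1.34 and 3.42 CPM. In 3-week Fas+/+ libraries it stood at 46.0, 23.7, 19.1 and 20.02 CPM, a log2 fold change over naive of 3.26 (SE 0.47, edgeR adjusted p = 5.06e-05). The lowest of these was several times the highest naive value, and replicate 1 stood well above the other 3. In 3-week Fas-/- libraries it stood at 19.5, 21.7, 20.5 and 67.9 CPM, a log2 fold change of 3.51 (SE 0.47, edgeR adjusted p = 5.48e-05). At 6 weeks the values were 6.38, 17.2, 15.5 and 12.4 CPM in Fas+/+ and 11.8, 14.8, 10.6 and 8.26 CPM in Fas-/- libraries. The log2 fold changes over naive were then 2.18 (SE 0.46, edgeR adjusted p = 0.0085) and 2.00 (SE 0.46, edgeR adjusted p = 0.0143), so Nlrc5 passed the test in every bleomycin group.

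The heavy chains H2-K1 and H2-D1 moved together. H2-K1 stood at 277, 303, 242 and 346 CPM in naive libraries, at 1022, 600, 565 and 567 CPM in 3-week Fas+/+ and at 573, 526, 491 and 1139 CPM in 3-week Fas-/- libraries. The naive and bleomycin values did not overlap, and 1 library in each 3-week group held a far higher value than the other 3. At 6 weeks H2-K1 was at 403, 661, 666 and 544 CPM in Fas+/+ and 456, 601, 447 and 495 CPM in Fas-/- libraries. Its log2 fold change over naive was 1.24 (SE 0.26, edgeR adjusted p = 0.00107) and 1.22 (SE 0.26, edgeR adjusted p = 0.00182) at 3 weeks in Fas+/+ and Fas-/-, and 0.96 (SE 0.25, edgeR adjusted p = 0.0328) at 6 weeks in Fas+/+. In 6-week Fas-/- libraries the log2 fold change of 0.78 (SE 0.25) missed the threshold (edgeR adjusted p = 0.0796), though the 4 values lay above all 4 naive ones (exact permutation p = 0.0286, two-sided, the smallest that 4 against 4 libraries can give).

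H2-D1, the other classical heavy chain, was at 392, 415, 375 and 456 CPM in naive libraries. It reached 1411, 817, 793 and 770 CPM in 3-week Fas+/+ and 843, 782, 763 and 1495 CPM in 3-week Fas-/- libraries, and stood at 601, 872, 855 and 713 CPM and at 669, 821, 633 and 689 CPM at 6 weeks. H2-D1 passed the test in all 4 comparisons. The log2 fold changes over naive were 1.21 (edgeR adjusted p = 0.000361), 1.25 (edgeR adjusted p = 0.000477), 0.89 (edgeR adjusted p = 0.0204) and 0.78 (edgeR adjusted p = 0.0388) in 3-week Fas+/+, 3-week Fas-/-, 6-week Fas+/+ and 6-week Fas-/- libraries, each with an SE of 0.22.

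B2m, the shared light chain, had the smallest SE among the genes called. It was at 486, 470, 420 and 539 CPM in naive libraries, 1087, 853, 832 and 837 CPM in 3-week Fas+/+ and 1063, 1025, 962 and 1282 CPM in 3-week Fas-/- libraries. At 6 weeks it was at 598, 908, 887 and 735 CPM in Fas+/+ and 779, 688, 669 and 721 CPM in Fas-/- libraries. All 16 bleomycin libraries lay above all 4 naive libraries. The log2 fold changes over naive were 0.91 (edgeR adjusted p = 4.97e-05) and 1.18 (edgeR adjusted p = 1.33e-05) at 3 weeks and 0.71 (edgeR adjusted p = 0.00315) and 0.58 (edgeR adjusted p = 0.0131) at 6 weeks in Fas+/+ and Fas-/-, each with an SE of 0.13.

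The transporter subunits differed from each other. Tap1 rose from 32.5, 30.7, 26.8 and 33.4 CPM in naive to 90.8, 66.2, 63.1 and 56.5 CPM in 3-week Fas+/+ and 64.0, 61.8, 55.8 and 116 CPM in 3-week Fas-/- libraries, log2 fold changes of 1.17 (SE 0.21, edgeR adjusted p = 0.000329) and 1.27 (SE 0.21, edgeR adjusted p = 0.000286). At 6 weeks it was at 38.3, 56.2, 61.6 and 47.5 CPM in Fas+/+ and 47.7, 49.998, 38.8 and 41.5 CPM in Fas-/- libraries, above all naive values. The log2 fold change was then 0.72 (SE 0.21, edgeR adjusted p = 0.0486) in Fas+/+, just inside the threshold, and 0.53 (SE 0.21, edgeR adjusted p = 0.142) in Fas-/- libraries. Tap2, its partner in the heterodimer, was at 88.2, 85.4, 85.6 and 84.9 CPM in naive, 141, 96.0, 96.4 and 94.1 CPM in 3-week Fas+/+ and 103, 95.6, 92.3 and 162 CPM in 3-week Fas-/- libraries. At 6 weeks Tap2 was at 106, 112, 129 and 101 CPM in Fas+/+ and 90.6, 112, 94.8 and 94.3 CPM in Fas-/- libraries. The Tap2 values stood above naive without overlap but by little, with log2 fold changes of 0.31 (SE 0.16, edgeR adjusted p = 0.122), 0.40 (SE 0.16, edgeR adjusted p = 0.0634), 0.38 (SE 0.16, edgeR adjusted p = 0.185) and 0.19 (SE 0.16, edgeR adjusted p = 0.555) in 3-week Fas+/+, 3-week Fas-/-, 6-week Fas+/+ and 6-week Fas-/- libraries.

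Tapbp, the chaperone that joins the heavy chain to the transporter, was the gene of the set nearest to its naive level. It stood at 290, 325, 265 and 335 CPM in naive, 399, 330, 308 and 327 CPM in 3-week Fas+/+ and 323, 331, 309 and 470 CPM in 3-week Fas-/- libraries. At 6 weeks it was at 287, 351, 388 and 352 CPM in Fas+/+ and 304, 342, 318 and 329 CPM in Fas-/- libraries, and its ranges overlapped naive in all 4 comparisons. The log2 fold changes were 0.17, 0.24, 0.18 and 0.09, each with an SE of 0.13, and the edgeR adjusted p-values ran from 0.159 to 0.749.

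The immunoproteasome subunits Psmb8 and Psmb9 rose at 3 weeks in both genotypes. Psmb8 went from 17.6, 14.1, 14.2 and 17.4 CPM in naive to 50.7, 40.6, 38.5 and 33.5 CPM in 3-week Fas+/+ and 40.4, 36.5, 30.95 and 63.7 CPM in 3-week Fas-/- libraries, log2 fold changes of 1.37 (SE 0.21, edgeR adjusted p = 8.12e-05) and 1.44 (SE 0.21, edgeR adjusted p = 9.95e-05). Psmb9 went from 8.83, 8.11, 4.92 and 8.48 CPM to 29.7, 18.1, 13.03 and 12.5 CPM and to 12.6, 11.6, 11.4 and 32.7 CPM, log2 fold changes of 1.27 (SE 0.33, edgeR adjusted p = 0.00565) and 1.17 (SE 0.33, edgeR adjusted p = 0.0132). In the 3-week Fas-/- group the Psmb9 call rested on a single library, since without replicate 4 the log2 fold change was 0.64 and the call was lost. At 6 weeks Psmb8 was at 21.1, 33.7, 34.8 and 26.7 CPM in Fas+/+ and 23.2, 28.6, 19.4 and 22.1 CPM in Fas-/- libraries, and Psmb9 at 10.5, 15.3, 15.1 and 12.99 CPM and at 11.9, 15.5, 10.3 and 10.8 CPM. These lay above the naive values of each gene without overlap. Psmb8 was then higher than naive in Fas+/+ libraries by a log2 fold change of 0.87 (SE 0.21, edgeR adjusted p = 0.0171), and had 0.56 (SE 0.21, edgeR adjusted p = 0.12) in Fas-/- libraries. Psmb9 was called in neither, at 0.83 (SE 0.33, edgeR adjusted p = 0.174) and 0.67 (SE 0.33, edgeR adjusted p = 0.26).

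**Figure D2:**
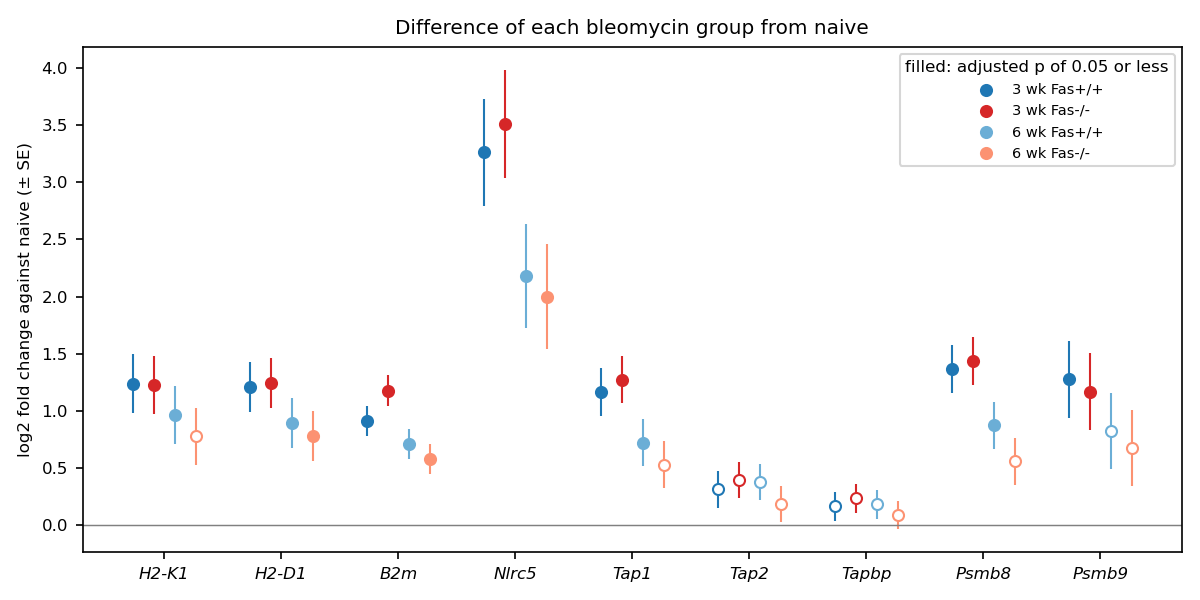
Log2 fold change over naive of each of the 9 genes in the 4 bleomycin groups, with edgeR estimates as points and standard errors as bars. Filled points passed an adjusted p of 0.05. Nlrc5 stands apart between 2.00 and 3.51, while Tapbp stays between 0.09 and 0.24.

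To ask whether Fas deletion was accompanied by another level of class I genes, Fas-/- was compared with Fas+/+ within each week. None of the 9 genes was called at 3 weeks, where 0.171% of all genes were called in either direction, and none at 6 weeks, where 0.0507% were. edgeR gave an unadjusted p under 0.05 for 0 of the 9 genes in each of these comparisons, and DESeq2 also called 0. At 3 weeks the log2 differences ran from -0.11 (Psmb9, SE 0.33) to 0.26 (B2m, SE 0.13, edgeR adjusted p = 0.598), with a median of 0.07. At 6 weeks all 9 were negative, from -0.32 (Psmb8, SE 0.20, edgeR adjusted p = 0.816) to -0.09 (Tapbp, SE 0.13), with a median of -0.18. The genotype-by-time interaction was called for 0 of the 9 genes by edgeR and by DESeq2, against 1 gene of all those tested (0.00634%), and B2m alone had an unadjusted p under 0.05. That none passed the test does not show that the genotypes were alike.

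Between 3 and 6 weeks the pathway was lower in part in Fas-/- libraries. B2m fell by 0.60 on the log2 scale (SE 0.13, edgeR adjusted p = 0.0105), Nlrc5 by 1.51 (SE 0.43, edgeR adjusted p = 0.036), Tap1 by 0.74 (SE 0.21, edgeR adjusted p = 0.0328) and Psmb8 by 0.88 (SE 0.20, edgeR adjusted p = 0.0149), 4 of 9 genes against 4.54% of all genes called lower. For each of these 4 genes every 6-week Fas-/- library lay below every 3-week one, a gap in that direction shown by 8.10% of all genes. The other 5 genes were not called, and the median over the 9 was -0.49. The Nlrc5 and Tap1 calls rested on single libraries: without Week3 FasDel replicate 4 their log2 differences were -0.85 and -0.44 and neither was called. Leaving out Week6 FasDel replicate 1 or replicate 4 left 2 of the 4 calls and leaving out replicate 3 left 1.

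In Fas+/+ libraries none of the 9 genes was called between the same weeks by edgeR, against 10.9% of all genes called lower and 12.0% called higher. Of the 9, 3 had an unadjusted p under 0.05 and DESeq2 called 1 lower. The shares of all genes at that unadjusted p and by DESeq2 are not given here, so these counts have no background beside them. Nlrc5 had the largest difference, -1.08 on the log2 scale (SE 0.42, edgeR adjusted p = 0.0717), with every 6-week library below every 3-week library (exact permutation p = 0.0286), a gap in that direction shown by 11.2% of all genes. Since the interaction was not called, the fall in Fas-/- libraries is not shown to differ from the values in Fas+/+ libraries.

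Over the 20 libraries the 9 genes varied together once the group means were removed, although not in every group taken singly. In 6-week Fas-/- libraries B2m was highest in replicate 1, at 779 CPM, and H2-K1 and Nlrc5 in replicate 2, at 601 and 14.8 CPM. Pooled over groups, the Pearson correlation of Nlrc5 with the other genes over 20 libraries was 0.94 for Psmb9, 0.92 for Tap1, 0.90 for H2-K1, 0.87 for H2-D1, Psmb8 and Tapbp, 0.84 for B2m and 0.76 for Tap2. Spearman's rho ran from 0.64 (Tap2) to 0.91 (Psmb9). Each of the 8 relations had an adjusted permutation p of at most 0.0129 by either measure (100000 permutations within groups, 8 relations). Without the 2 libraries farthest from the median of Nlrc5, r was 0.73 to 0.91. Over all 36 pairs of the 9 genes the same correlation ran from 0.64 to 0.99, with a median of 0.88.

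In 3 of the 5 groups the library that led for most or all of the 9 genes was also the one richest in endothelial transcripts. Week3 WT replicate 1 and Week3 FasDel replicate 4 were the highest of their groups for 9 of the 9 genes, and Week6 FasDel replicate 2 for 8. The summed CPM of 10 blood endothelial markers was 10312 in Week3 WT replicate 1 against 2827 to 3687 in the other 3 libraries of its group, 9293 in Week3 FasDel replicate 4 against 730 to 1256, and 2979 in Week6 FasDel replicate 2 against 121 to 489. In naive libraries it was 178 to 473, and in 6-week Fas+/+ libraries 547 to 2114. Of the 10 markers, 10, 9, 1 and 0 were called higher than naive in 3-week Fas+/+, 3-week Fas-/-, 6-week Fas+/+ and 6-week Fas-/- libraries. Deviations of the 9 genes from their group means had correlations with the mean of these markers from 0.42 (B2m) to 0.79 (Tap2), and of 0.63 for Nlrc5 (Spearman's rho 0.45, 0.77 and 0.53), given as a description without a test.

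**Figure D3:**
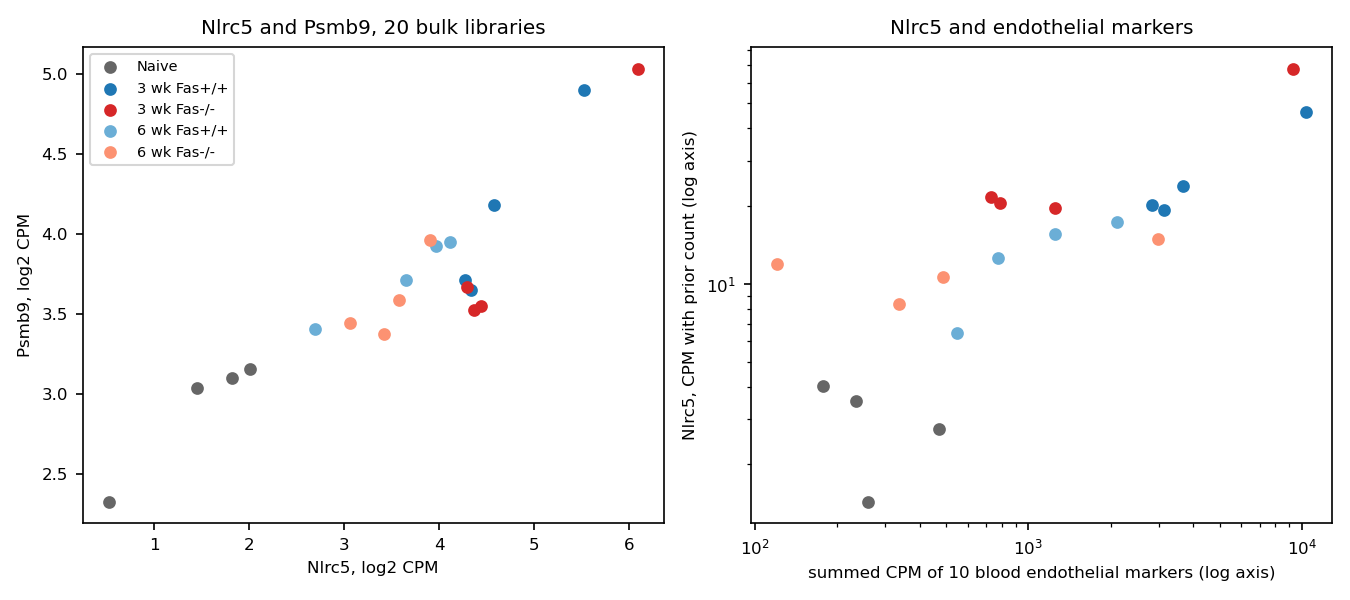
Psmb9 against Nlrc5 in log2 CPM (left), and Nlrc5 in CPM against the summed CPM of 10 blood endothelial markers (right, both axes log), in 20 bulk libraries coloured by group. Psmb9 is higher where Nlrc5 is higher (r = 0.94 for deviations from group means, pooled over groups), and the rightmost points, at 10312 and 9293 summed CPM, also carry the highest Nlrc5, at 46.0 and 67.9 CPM.

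When the endothelial marker mean entered the model as a covariate, 3, 5, 2 and 4 of the 9 genes were called higher than naive. These counts replaced 7, 7, 6 and 3, and the medians became 0.40, 0.67, 0.46 and 0.40. The share of all genes called in this fit is not given here, so the counts have no background beside them. Every 3-week and every 6-week Fas+/+ library lay above every naive library in the summed CPM of these markers. Group and covariate are thus largely confounded, and the adjusted values extrapolate and cannot separate them. Nlrc5 and B2m kept their calls in all 4 comparisons. Nlrc5 then had log2 fold changes of 1.83, 2.40, 1.42 and 1.66 (edgeR adjusted p = 0.011, 0.000537, 0.0381 and 0.00535) and B2m of 0.66, 1.01, 0.58 and 0.52 (edgeR adjusted p = 0.015, 0.000242, 0.0241 and 0.0128) in 3-week Fas+/+, 3-week Fas-/-, 6-week Fas+/+ and 6-week Fas-/- libraries. H2-K1 had 0.28 (edgeR adjusted p = 0.431) and 0.52 (edgeR adjusted p = 0.064) at 3 weeks, so it lost both calls, and the log2 fold changes of Tap2 and Tapbp at 3 weeks turned negative, at -0.28 and -0.25 in Fas+/+. With Week3 WT replicate 1, Week3 FasDel replicate 4, Week6 WT replicate 2 and Week6 FasDel replicate 2 left out instead, 7, 7, 8 and 5 genes were called higher, with medians of 0.95, 0.95, 0.75 and 0.53. For these counts too the share of all genes is not given. The 3-week libraries left in still lay above all naive libraries in the summed CPM of these markers. Without those 4 libraries the correlation with Nlrc5 remained past the threshold for B2m (0.80), Tap1 (0.79), Psmb8 (0.69) and Psmb9 (0.87), and not for H2-K1 (0.72), H2-D1 (0.65), Tapbp (0.71) or Tap2 (0.30).

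Markers of leukocytes, which the sort excluded by CD45, and of erythroid cells, for which the gate had no marker of its own, moved with the groups as well. Of 8 tested hematopoietic markers, 7, 7, 4 and 0 were higher than naive in 3-week Fas+/+, 3-week Fas-/-, 6-week Fas+/+ and 6-week Fas-/- libraries. Their summed CPM over the list of 9 was 3.83 to 7.26 in naive, 54.3 to 74.7 and 31.9 to 145 at 3 weeks, and 5.37 to 137 and 6.32 to 8.91 at 6 weeks. All 6 erythroid markers were lower than naive in 3-week Fas+/+ and Fas-/- and 6-week Fas-/- libraries and 5 of 6 in 6-week Fas+/+ libraries, from a naive sum of 2980 to 9591 CPM to at most 236 CPM elsewhere. The part of leukocyte and erythroid RNA in the class I values was not tested.

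Other genes of antigen presentation gave a wider view. These lists, like the 9 genes, were drawn up with earlier results of these data known. Of 10 tested other class I and class I-like genes, 8 were higher than naive and 1 lower in 3-week Fas+/+ libraries (median log2 fold change 0.78), 7 higher and 1 lower in 3-week Fas-/- (0.88), and 3 higher and 0 lower at 6 weeks in both genotypes (0.55 in Fas+/+ and 0.61 in Fas-/-). In 3-week Fas+/+ libraries H2-Q4 had a log2 fold change of 2.00 (SE 0.32, edgeR adjusted p = 0.000131), H2-Q7 of 3.79 (edgeR adjusted p = 0.000169) and H2-T22, a ligand of some gamma-delta T cells, of 0.56 (edgeR adjusted p = 0.000307). Fcgrt, the heavy chain of the neonatal Fc receptor, which also pairs with B2m, fell by 0.44 (edgeR adjusted p = 0.000162). Tapbpl, Psmb10, the calnexin cycle and other loading genes had smaller values, with 2 higher and 1 lower of 10 in 3-week Fas+/+ libraries (median 0.21) and 4 higher and 1 lower in 3-week Fas-/- (0.26). Beside the 22.1% of all genes called higher in 3-week Fas+/+ libraries, 2 of 10 is no more than the background. Psmb10, the third immunoproteasome catalytic subunit, had a log2 fold change of 0.52 (edgeR adjusted p = 0.0142) in 3-week Fas+/+ libraries, the proteasome activator subunit Psme1 one of 0.41 (edgeR adjusted p = 0.0226), and the aminopeptidase gene Lnpep fell by 0.49 (edgeR adjusted p = 0.000215).

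Constitutive proteasome subunits had smaller log2 fold changes at 3 weeks than Psmb8 and Psmb9. Of 7, 6 and 5 were higher in 3-week Fas+/+ and Fas-/- libraries and 0 at 6 weeks, with 3-week medians of 0.31 and 0.25. The named ones in Fas+/+ were Psmb1 (0.37), Psmb2 (0.35), Psmb3 (0.29) and Psmb7 (0.31), with edgeR adjusted p-values of 0.00174, 0.00337, 0.00886 and 0.0097. The class II genes, which present peptides from outside the cell, had the largest medians of these lists. All 7 were higher at 3 weeks in both genotypes, with medians of 4.34 and 3.78, and 2 of 7 were called at 6 weeks in Fas+/+ (median 2.60) and 0 in Fas-/- libraries (2.26). In 3-week Fas+/+ libraries the invariant chain gene Cd74 had a log2 fold change of 4.52 (edgeR adjusted p = 0.000323), H2-Eb1 of 4.41 (edgeR adjusted p = 0.000379), H2-DMb1 of 3.45 (edgeR adjusted p = 0.000486) and H2-DMa of 4.11 (edgeR adjusted p = 0.000506).

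Interferon signalling genes and their targets were the lists in which genotype differed. Of 20 interferon-stimulated genes, 12 were higher and 1 lower than naive in 3-week Fas+/+ (median 0.91), 17 higher and 1 lower in 3-week Fas-/- (1.63), 6 higher in 6-week Fas+/+ (0.68), and 3 higher and 2 lower in 6-week Fas-/- libraries (0.24). In 3-week Fas+/+ libraries Oas1a had a log2 fold change of 2.63 (edgeR adjusted p = 4.97e-05), Irgm1 of 0.92 (edgeR adjusted p = 6.36e-05) and Ifi44 of 2.10 (edgeR adjusted p = 0.000451), while Ifit2 fell by 0.73 (edgeR adjusted p = 0.00018). Directly between the genotypes at 3 weeks, 4 of the 20 were higher in Fas-/- libraries: Ifit3 by 1.18 (edgeR adjusted p = 0.0237), Irf7 by 1.10 (edgeR adjusted p = 0.0226), Usp18 by 1.05 (edgeR adjusted p = 0.0226) and Gbp3 by 0.94 (edgeR adjusted p = 0.0217), against 0.165% of all genes called higher, as was Stat2, a signal transducer of type I interferon, by 0.76 (edgeR adjusted p = 0.0338) in the list of 18 signalling genes. None of the 9 class I genes was called in that comparison. At 6 weeks 0 genes of either list were called between the genotypes. Between 3 and 6 weeks 14 of the 20 fell in Fas-/- libraries (median -1.22), against 4.54% of all genes. Of the signalling list, 7 and 10 of 18 were higher than naive at 3 weeks in Fas+/+ and Fas-/- libraries, against 22.1% and 17.2% of all genes, and 0 lower, among them in Fas+/+ Nfkb1 (0.32, edgeR adjusted p = 8.77e-05), Ifngr2 (0.50, edgeR adjusted p = 0.000187), Ifnar1 (0.31, edgeR adjusted p = 0.000319) and Jak2 (0.70, edgeR adjusted p = 0.00192). The interferon genes themselves (Ifng, Ifnb1, Ifna4 and Ifnl3) did not pass the filter on low counts.

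The genes whose levels followed the mean of the 9 most closely over the 20 bulk libraries were H2-Q4 (r = 0.98), Gbp9 (0.96), H2-Q6 (0.96), H2-Q7 (0.96) and Psmb10 (0.95). After removal of group means they were H2-Q4 (0.99), Gbp9 (0.97), Tapbpl (0.96), Slfn5 (0.96) and Lgals9 (0.96). These values come from the same libraries, which differ in depth and in endothelial markers, and the H2-Q genes share sequence with H2-K1 and H2-D1.

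The single-cell libraries held 13900 barcodes, of which 12059 passed the filters (603 naive, and 2664, 2608, 3240 and 2944 in the libraries labelled Week3 WT, Week3 FasDel, Week6 WT and Week6 FasDel). Their week labels went against the bulk data. Among genes called between weeks in bulk Fas+/+ libraries, 120 of 3457 (3.47%) moved the same way between the single-cell libraries labelled 6 and 3 weeks, and among those of Fas-/- libraries 82 of 1335 (6.14%) did. Profibrotic fibroblast-like cells were 2.67% and 3.95% of cells in the libraries labelled Week3 WT and Week3 FasDel and 9.41% and 13.8% in those labelled Week6 WT and Week6 FasDel. In bulk Fas+/+ libraries, by contrast, 8 of 10 profibrotic markers were called lower at 6 than at 3 weeks (median log2 fold change -1.39), against 10.9% of all genes. In bulk Fas-/- libraries 1 of 10 was (median -0.85), against 4.54% of all genes. The labels are therefore used here only as names of libraries, and no direction over time is read from them. Barcodes shared by more than 1 library numbered 607. They weighed most on the naive library, where 378 of 766 barcodes also occurred in another library. The counts were 178 of 3127 and 402 of 2933 in the libraries labelled Week3 WT and Week3 FasDel. They were 253 of 3675 and 485 of 3399 in those labelled Week6 WT and Week6 FasDel. All ratios to naive below rest on that naive library, and the effect of shared barcodes on them was not tested. With 1 library per condition there was no test, and the intervals below (95%, exact) cover counting error only.

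Cells were grouped by clusters computed without the genes of this pathway, and cluster classes were named from markers. Among 11 named classes with at least 20 cells in at least 2 libraries, 8 of the 9 class I genes had their highest mean level in blood endothelial-like (4 genes) or hematopoietic-like cells (4 genes) and Tapbp in mesothelial-like cells, and levels were lowest in vascular smooth muscle-like cells, which were last for all 9. Levels are in UMIs (unique molecular identifiers, 1 per captured transcript molecule) per 10000 UMIs of the class. For H2-D1 the mean over libraries was 40.9 ± 2.44 (SD, n = 4 libraries) in blood endothelial-like and 33.8 ± 4.55 in hematopoietic-like cells. The lowest blood endothelial-like value (38.29) and the highest hematopoietic-like value (38.27) nearly met, and their intervals overlapped. In lymphatic endothelial-like cells H2-D1 was 20.6 ± 1.55, in a range below both. It was 15.5 ± 1.95 in mesothelial-like, 10.4 ± 1.96 in profibrotic fibroblast-like and 3.37 ± 0.498 in vascular smooth muscle-like cells. H2-K1 was 35.8 ± 4.08 in hematopoietic-like and 29.6 ± 4.23 in blood endothelial-like cells, whose ranges overlapped, against 7.11 ± 0.925 in profibrotic fibroblast-like, 4.21 ± 0.562 in lipofibroblast-like and 2.38 ± 0.544 in vascular smooth muscle-like cells.

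The other genes gave nearly the same order of classes, with exceptions. B2m was 27.7 ± 2.12 in hematopoietic-like and 23.01 ± 4.23 in blood endothelial-like cells with overlapping ranges. Profibrotic fibroblast-like (13.8 ± 3.30, n = 4 libraries) and mesothelial-like cells (13.4 ± 2.87, n = 5) came next, also with overlapping ranges. Only the mesothelial-like mean includes the naive library, which held no profibrotic fibroblast-like cells. Among libraries with both classes, B2m was higher in mesothelial-like cells in all but the library labelled Week6 FasDel. Psmb8 was 3.94 ± 0.669 in hematopoietic-like, 2.95 ± 0.298 in blood endothelial-like and 0.440 ± 0.0736 in lipofibroblast-like cells. Psmb9 (1.87 ± 0.220) and Tap1 (1.20 ± 0.0865) were highest in blood endothelial-like cells, in ranges that overlapped those of hematopoietic-like cells. Tapbp differed from the rest of the set, since mesothelial-like cells were first at 4.75 ± 0.717, above the range of blood endothelial-like cells (3.13 ± 0.455). Tap2 was nearly even between hematopoietic-like (1.88 ± 0.581), blood endothelial-like (1.87 ± 0.228) and pericyte-like cells (1.60 ± 0.381).

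**Figure D4:**
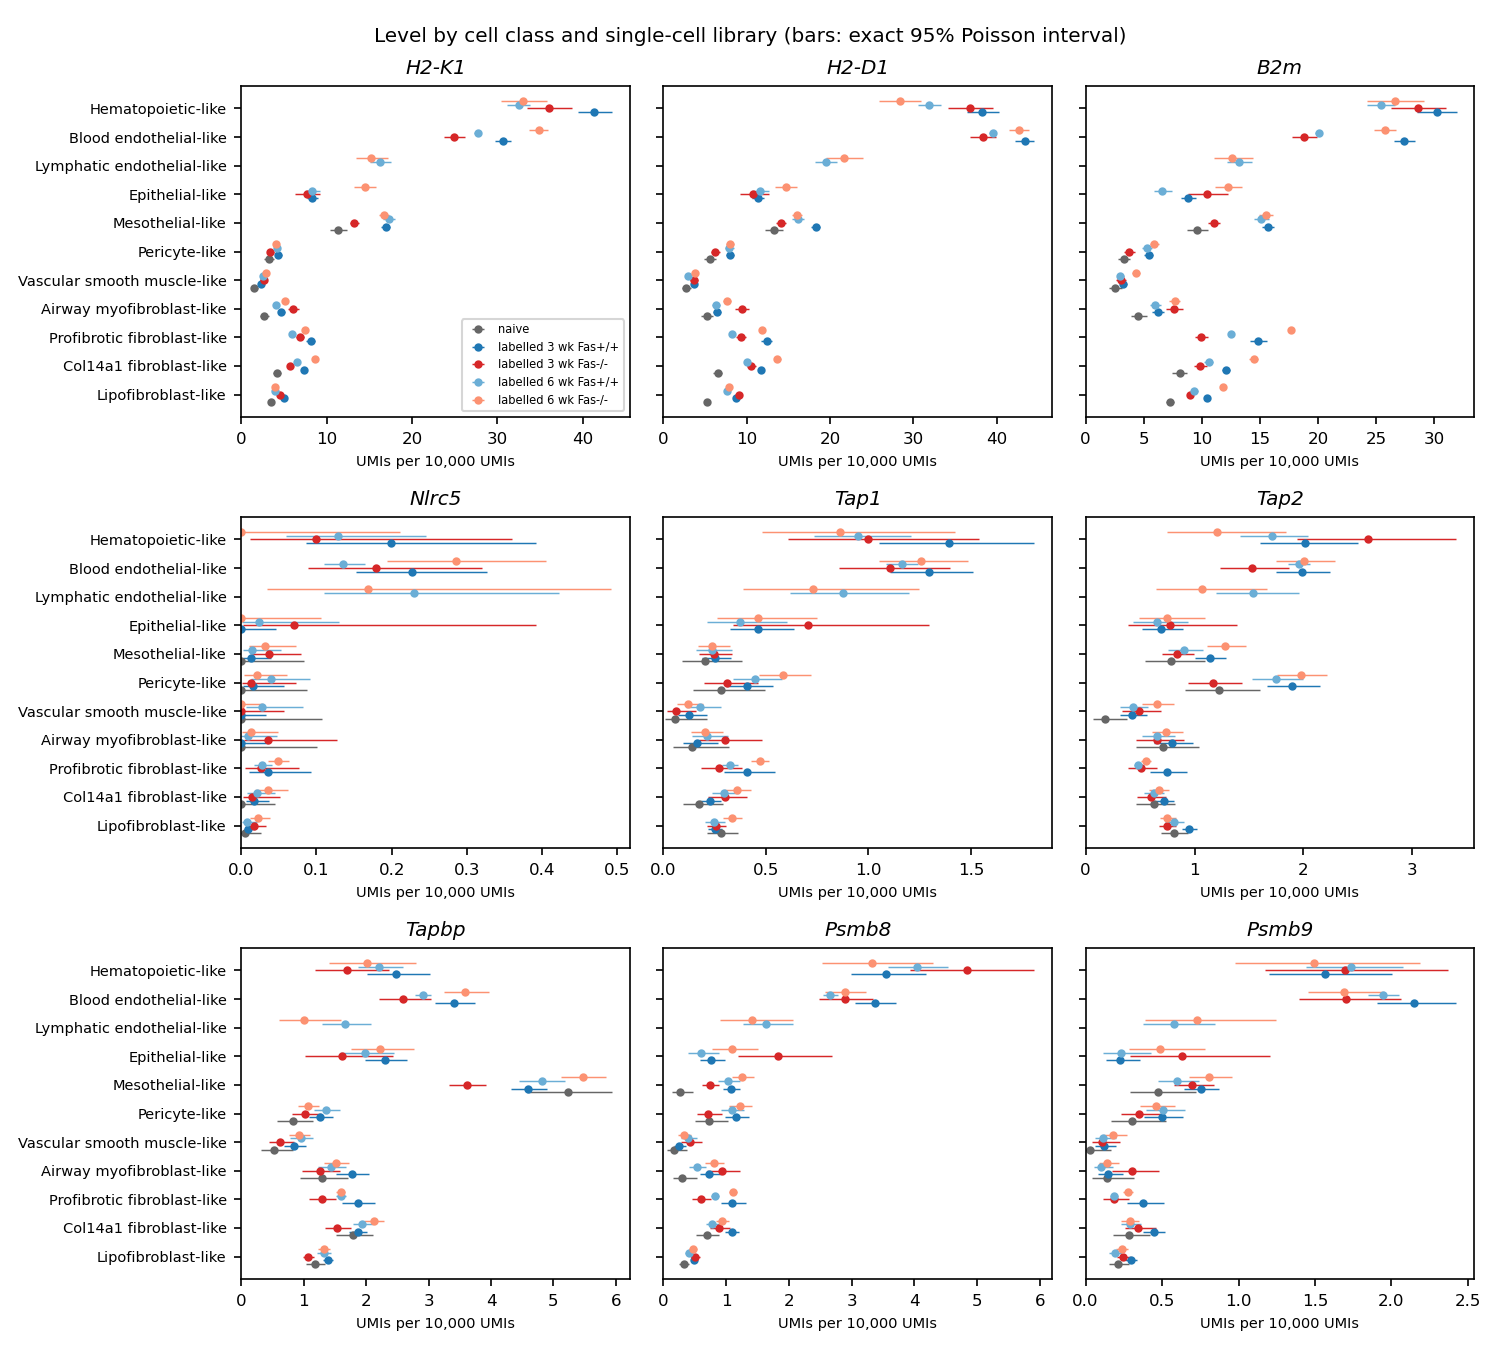
UMIs of each gene per 10000 UMIs of the class (horizontal, linear axes from 0, 1 panel per gene) by cell class, with 1 point per single-cell library that held at least 20 cells of the class and exact 95% Poisson intervals as bars. Blood endothelial-like or hematopoietic-like cells have the highest mean for 8 of the 9 genes and mesothelial-like cells for Tapbp, while vascular smooth muscle-like cells have the lowest mean for all 9.

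Nlrc5 was sparse, with 428 UMIs in all 12059 cells, of which 2 were in the naive library. Blood endothelial-like cells held 0.207 ± 0.0647 per 10000 UMIs (SD, n = 4 libraries), lymphatic endothelial-like cells 0.199 ± 0.0435 (n = 2), profibrotic fibroblast-like cells 0.0344 ± 0.0102 (n = 4) and lipofibroblast-like cells 0.0119 ± 0.00737 (n = 5). A Nlrc5 UMI was seen in 7.67% (exact 95% interval 6.52 to 8.96) of 1916 blood endothelial-like cells, which had a median of 4608.5 UMIs, and in 1.11% (0.746 to 1.59) of 2608 lipofibroblast-like cells, which had a median of 8688 UMIs. These shares pool the cells of all libraries, 1267 of the 1916 from that labelled Week6 WT, and their intervals do not cover differences between libraries. In the libraries labelled Week3 WT, Week3 FasDel, Week6 WT and Week6 FasDel the shares were 9.75%, 5.88%, 6.87% and 11.1% in blood endothelial-like cells. In lipofibroblast-like cells they were 0.648%, 1.20%, 0.792% and 2.12%. With each cell thinned to 3000 UMIs, which left out 538 and 262 shallower cells, the pooled shares were 4.35% and 0.469%. The share in lipofibroblast-like cells sets no floor for background, since these cells may express the gene.

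Within a library, the excess of blood endothelial-like over lipofibroblast-like cells also differed by gene. Over the 4 bleomycin libraries it was 10.8- to 25.7-fold for Nlrc5, 6.93- to 10.2-fold for Psmb9, 5.69- to 6.87-fold for Psmb8, 5.46- to 8.71-fold for H2-K1, 4.23- to 5.40-fold for H2-D1 and 3.76- to 5.18-fold for Tap1. It was least for Tapbp (2.20- to 2.71-fold), Tap2 (2.04- to 2.66-fold) and B2m (2.09- to 2.62-fold). The Nlrc5 folds are imprecise. They rest on 7, 8, 3 and 13 UMIs in lipofibroblast-like cells of the libraries labelled Week3 WT, Week3 FasDel, Week6 WT and Week6 FasDel. Blood endothelial-like cells were 1.49% of cells in the naive library, 8.86%, 6.52% and 7.95% in those labelled Week3 WT, Week3 FasDel and Week6 FasDel, and 39.1% in the library labelled Week6 WT. In the latter they held 21.1% of all UMIs, and 52.0% of the UMIs of H2-K1, 52.7% of H2-D1, 58.5% of Nlrc5 and 32.2% of B2m.

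Most ratios to naive were lower when class levels were weighted by the naive makeup of classes. Over all cells, H2-K1 per 10000 UMIs was 1.77, 1.48, 2.37 and 1.67 times naive in the libraries labelled Week3 WT, Week3 FasDel, Week6 WT and Week6 FasDel. With the class levels of each library weighted by the naive shares of 6 named classes and of the unnamed cells, which together held 96.4% of naive UMIs, these ratios were 1.497, 1.31, 1.36 and 1.46. Classes with fewer than 20 naive cells were left out of the weighted ratios. Among them were blood endothelial-like cells, with 9, and profibrotic fibroblast-like cells, which the naive library lacked. In the library labelled Week6 WT these classes held 7376119 and 8811822 of 35004216 UMIs. The gap between both ratios therefore mixes new weights with the loss of whole classes, and the calculation cannot separate them. The unnamed cells pool 5 unlike clusters in proportions that differ between libraries, and held 16.2% of naive UMIs. With the 6 named classes alone the ratios of H2-K1 were 1.51, 1.32, 1.36 and 1.46, and over the 32 ratios of 8 genes the change ran from -0.071 to 0.096. For H2-D1 the ratios went from 1.85, 1.67, 2.40 and 1.80 to 1.61, 1.55, 1.44 and 1.61, for B2m from 1.60, 1.27, 1.68 and 1.87 to 1.43, 1.17, 1.30 and 1.61, and for Psmb8 from 1.91, 1.61, 2.57 and 2.06 to 1.73, 1.56, 1.54 and 1.81. The largest drop was in the library labelled Week6 WT, the one richest in endothelial-like cells, where Psmb9 went from 2.35 to 1.09 and Tap1 from 2.06 to 1.20. Tap2 and Tapbp lay between 0.85 and 1.24 at the naive makeup in all 4 libraries. Some of their ratios moved away from naive. Tap2 went from 1.03 to 1.15 in the library labelled Week6 FasDel, and Tapbp from 0.926 to 0.854 in that labelled Week3 FasDel. These weights were chosen after the data were seen, and Nlrc5 was left out for its 2 naive UMIs.

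**Figure D5:**
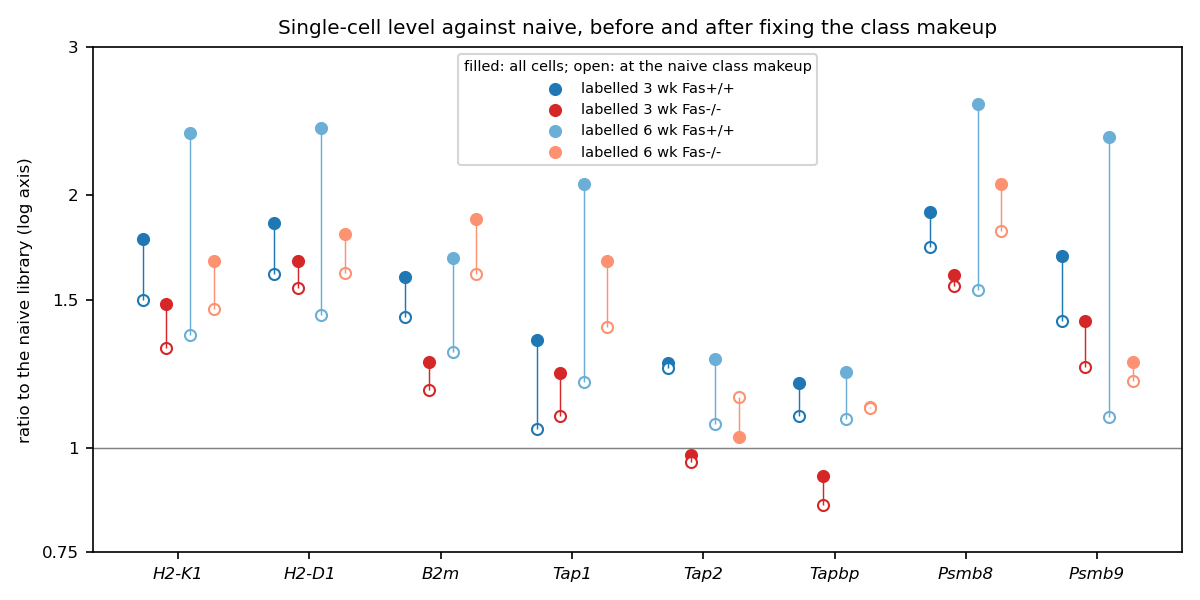
Ratio to the naive single-cell library of each gene's UMIs per 10000, over all cells (filled points) and with class levels weighted by the naive class shares (open points), for the 4 bleomycin libraries by label on a log axis. The gap between both ratios is widest in the library labelled Week6 WT, where H2-K1 goes from 2.37 to 1.36.

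Within lipofibroblast-like cells, the largest fibroblast class, 7, 5, 6 and 7 of 8 genes with enough UMIs were above the naive library in those labelled Week3 WT, Week3 FasDel, Week6 WT and Week6 FasDel. The median ratios were 1.40, 1.19, 1.12 and 1.16, beside medians over all genes of 0.985, 0.995, 1.02 and 1.02. H2-D1 had the highest ratio in 3 of these libraries, at 1.65 (1.55 to 1.76), 1.72 (1.61 to 1.84) and 1.45 (1.35 to 1.55) in the libraries labelled Week3 WT, Week3 FasDel and Week6 WT and in that labelled Week6 FasDel B2m was first at 1.63 (1.54 to 1.72), above H2-D1 with an interval of 1.40 to 1.60. Tap2 and Tapbp stood between 0.91 and 1.18. Tap1 was at 0.893, 0.915, 0.879 and 1.19 in the libraries in the order above, and each interval included 1. Psmb9 was at 1.39, 1.15, 0.889 and 1.11, and only the first interval lay above 1. The class joined 3 clusters in unlike proportions, since the cluster led by Slc7a10 and Colq held 172 of the 222 naive cells of the class, and the cluster led by Cpm and Hp was the largest in the library labelled Week3 FasDel, with 284 of 669.

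Between genotypes the profibrotic fibroblast-like cells gave opposite directions at the labelled weeks, as did several other classes. In the pair labelled week 3, 0 of 8 genes were higher in the Fas-/- library and 7 intervals lay below 1, with a median ratio of 0.675 beside 1.02 over all genes. In the pair labelled week 6, 8 of 9 genes were higher in the Fas-/- library with intervals above 1, and the median ratio was 1.41 beside 0.974 over all genes. There H2-D1 stood at 1.42 (1.38 to 1.46), B2m at 1.41 (1.38 to 1.44), H2-K1 at 1.25 (1.21 to 1.30), Tap1 at 1.46 (1.26 to 1.69), Psmb9 at 1.51 (1.24 to 1.84) and Nlrc5 at 1.77 (1.07 to 3.01, from 51 and 24 UMIs). Tapbp was at 0.994 (0.926 to 1.07). Blood endothelial-like cells showed the same contrast in weaker form, with 0 of 9 genes above 1 in the pair labelled week 3 (median 0.793) and 8 of 9 in the pair labelled week 6 (median 1.08). So did the medians of pericyte-like (0.734, 1.06), mesothelial-like (0.779, 1.08), Col14a1 fibroblast-like (0.822, 1.21) and lipofibroblast-like cells (0.890, 1.09). Airway myofibroblast-like (1.29, 1.24), epithelial-like (1.15, 1.51) and hematopoietic-like cells (0.953, 0.898) did not. Median UMIs per cell were 5768 in the library labelled Week3 FasDel and 8896 in that labelled Week3 WT. Each of these ratios compares 1 library with 1 other, each a pool of mice, and whether it would recur in other pools could not be tested.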

How the data were processed

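Bulk RNA-seq covered 20 libraries and single-cell RNA-seq 5 libraries of sorted Lin- lung cells, grouped by their deposited labels alone. For bulk data the authors used skewer to trim reads, HISAT2 with GRCm38 to align them and HTSeq with Ensembl genes to count them. The versions of these tools are not given in the sources used here. They deposited raw counts per gene, used here, and a table normalized with DESeq2, not used here. For single cells the authors deposited UMI counts from Cell Ranger.

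The test was edgeR 4.0.16 (R 4.3.3) with filterByExpr, TMM and the quasi-likelihood F test over 5 groups. Benjamini-Hochberg adjustment ran over 15773 genes, and genes were called at an adjusted p of 0.05. CPM used library sizes scaled by TMM, and log2 CPM a prior count of 2. On simulated counts for the comparison of 3-week Fas+/+ with naive (15569 genes), 67.0% of genes changed by a log2 of 1 and 82.8% of those changed by 2 were recovered, with 3.92% false calls. Libraries of 1 group differed from each other beyond counting noise, so each counted as 1 replicate. DESeq2 1.42.0, other normalization and filters, single libraries left out and an endothelial covariate served as alternatives.

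The cell filter kept barcodes of 200 to 7500 genes with no more than 20% mitochondrial UMIs, and kept cells were clustered in scanpy 1.11.5 without the pathway genes. Classes were named from at least 3 markers over 2-fold, and 5 of 29 clusters stayed unnamed. Scrublet marked 46 of 12059 cells, too few to count as having worked. Class levels are summed UMIs, with exact Poisson or Clopper-Pearson intervals. Promoter sequences came from RefSeq. The 9 genes and the other lists were chosen with earlier results of these data known. All 9 genes are named, and of each other list up to 4 called genes with the smallest adjusted p in 3-week Fas+/+ against naive.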

Additional observations from a re-analysis of the deposited data

Results flagged for a closer look

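In 12 of the 45 sets of 4 bulk libraries tested (9 genes in 5 groups), 1 library stood far from the other 3 by Dixon's test, which flags about 1 set in 20 by chance. All 12 were high values of the same pair of libraries, so they are not independent of each other. In Week3 WT replicate 1, H2-K1 was at 1022 CPM, H2-D1 at 1411, B2m at 1087, Nlrc5 at 46.0 and Tap2 at 141 CPM, where the next highest libraries of the group had 600, 817, 853, 23.7 and 96.4 CPM. In Week3 FasDel replicate 4, H2-K1 was at 1139 CPM, H2-D1 at 1495, Nlrc5 at 67.9, Tap1 at 116, Tap2 at 162, Tapbp at 470 and Psmb9 at 32.7 CPM, where the next highest had 573, 843, 21.7, 64.0, 103, 331 and 12.6 CPM. The summed CPM of 10 blood endothelial markers in these libraries was 10312 and 9293, the highest of all 20. Without both libraries and the corresponding 6-week ones, 7 of the 9 genes were still called higher than naive at 3 weeks in each genotype. The share of all genes called in that fit is not given here. The 3-week libraries left in held 2827 to 3687 summed CPM of these markers in Fas+/+ and 730 to 1256 in Fas-/-. Naive libraries held 178 to 473, so leaving libraries out did not remove the endothelial difference.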

How the results depend on the processing

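The numbers of genes called higher than naive were 7, 7, 6 and 3 in 3-week Fas+/+, 3-week Fas-/-, 6-week Fas+/+ and 6-week Fas-/-. They became 3, 5, 2 and 4 with the endothelial covariate. Without the 4 libraries highest in endothelial markers within their bleomycin groups they became 7, 7, 8 and 5. Neither choice separates group from endothelial content at 3 weeks, where all libraries lay above naive in these markers. With only the groups compared in the fit, 6 were called in 6-week Fas-/-. Leaving out 1 library at a time gave 2 to 6 in 6-week Fas+/+ (2 without Control replicate 2 or 3, or Week6 WT replicate 2 or 3) and 0 to 3 in 6-week Fas-/- (0 without Control replicate 3). The 4 genes lower at 6 than 3 weeks in Fas-/- became 1 with only those groups, 2 with the covariate, and 1 to 4 with 1 library left out. In Fas+/+ between the same weeks, DESeq2 called 1 lower, leaving out the 4 libraries 2 lower and 1 higher, and the covariate 1 higher. Shares of all genes called are given for the main fit only, so the counts from the alternative fits have no background beside them.

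Same-numbered libraries did not deviate together (correlations from -0.46 to 0.40), so the numbers do not pair them. With the replicate block, 2 genes were lower between weeks in Fas-/-, and 7, 7, 5 and 2 higher than naive; 4 of 51 single-gene values lost their call. RLE normalization changed no call of the 51, leaving out the filter on low counts lost 1, and DESeq2 added 3.

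With the covariate the log2 fold change over naive turned negative for Tap2 (-0.28 and -0.029) and Tapbp (-0.25 and -0.060) in 3-week Fas+/+ and Fas-/- and for Tapbp in 6-week Fas+/+ (-0.036) and Fas-/- (-0.011), and positive for Tapbp between weeks in Fas-/- (0.049), for Tapbp between genotypes at 6 weeks (0.026) and for Psmb9 between genotypes at 3 weeks (0.19). None of these was called in either fit. The Psmb9 interaction was 0.072 without the 4 libraries. With 1 library left out, the interaction ran from -0.81 to 0.21 for Nlrc5 and from -0.38 to 0.46 for Psmb9, the 3-week genotype difference of Psmb9 from -0.61 to 0.23, and the difference of Tapbp between weeks in Fas-/- from -0.20 to 0.014. Without the 4 libraries the correlation with Nlrc5 missed the threshold for H2-K1 (0.72), H2-D1 (0.65), Tapbp (0.71) and Tap2 (0.30). Adjusted for the endothelial mean, all 8 kept it. With cells classed by summed marker UMIs, blood endothelial-like cells had the highest level for 7 genes in place of 4. Of the single-cell values, 21 of 45 moved by more than their interval with all barcodes kept, 31 of 99 with marker-based classes, and 15 of 18 shares moved with thinning, while leaving out cells marked by Scrublet moved 0 of 99. Ratios at the naive makeup moved beyond their interval in 6 of 32 with named classes only, a choice made after seeing the data. Single-cell counts limited Nlrc5 most, with 428 UMIs. The causes were not tested.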

Other observations

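The 20 interferon-stimulated genes summed to 19.5, 11.3, 10.4 and 25.8 UMIs per 10000 in profibrotic fibroblast-like cells of the libraries labelled Week3 WT, Week3 FasDel, Week6 WT and Week6 FasDel, and to 15.4, 16.3, 13.7 and 18.5 in blood endothelial-like cells. In lipofibroblast-like cells they summed to 5.78 in the naive library and to 6.57, 5.44, 5.44 and 10.6 in the others. In profibrotic fibroblast-like cells they were thus higher in the Fas-/- library of the pair labelled week 6 and lower in that of the pair labelled week 3, the same directions as the class I genes in those cells. No Ifng UMI was seen in 12059 cells, a count that allows up to about 3 UMIs by a one-sided 95% bound. The sort excluded CD45-positive leukocytes, so this count says nothing of Ifng in the whole lung.

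Most class II UMIs of the bleomycin libraries were in blood endothelial-like cells. Blood endothelial-like cells held 36.9, 29.4, 34.5 and 45.6 class II UMIs per 10000 in the libraries labelled Week3 WT, Week3 FasDel, Week6 WT and Week6 FasDel, or 72.3%, 56.4%, 78.1% and 72.0% of all class II UMIs of the library. Lipofibroblast-like cells held 0.102, 0.165, 0.237 and 0.112 in the same libraries and 0.0427 in the naive library. Ciita, the class II transactivator and a relative of Nlrc5, had 472 UMIs, of which 422 were in blood endothelial-like, 22 in hematopoietic-like and 2 in profibrotic fibroblast-like cells.

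The conflict between bulk and single-cell week labels also held within cell classes. Of genes called between weeks in bulk, 31.6% in Fas+/+ and 21.02% in Fas-/- moved the same way in lipofibroblast-like cells, and 25.4% and 15.96% in profibrotic fibroblast-like cells. The highest share among the 6 classes examined was 42.4%, in Col14a1 fibroblast-like cells and Fas+/+.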
